A study of Mus musculus with 10 samples.

Results

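The genes described here are 40 that encode the DNA replication machinery and the switch from G1 into S phase, in lungs of mouse pups raised in oxygen or in room air. They are a list of gene names, not chosen by a threshold on these values but with earlier results of these data known. A gene was measured where the platform annotation names it as the only gene of a probe set, which is a group of short probes for 1 transcript. Its brightest such probe set over the 10 arrays was used if the log2 value was 5 or more on at least 2 arrays. Of the 40 genes, 38 passed, among 14989 genes in all. The single-gene probe sets of Tyms, thymidylate synthase, lay below that filter, and Chaf1a, a chromatin assembly subunit, had no single-gene probe set.

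Lung RNA of ICR mice, an outbred strain, was hybridised to 10 Affymetrix whole-genome mouse arrays in a model of bronchopulmonary dysplasia (BPD), the chronic lung disease of preterm infants given oxygen. All pups were pooled within hours of birth, randomized, and nursed by dams that moved between the exposure chambers. The 4 groups were P14 room air (pups titled WT, in room air to postnatal day 14, n = 2), P14 hyperoxia (titled BPD, in 80% oxygen to day 14, n = 3), P29 room air (WT, to day 29, n = 2) and P29 hyperoxia (BPD, to day 29, n = 3). The labels name no engineered allele. Nothing in the labels ties an array to its own animal or says whether RNA of several animals was pooled. The p-values therefore reflect just the spread among these samples, which may be technical in part, although the sex-linked transcripts given below differed among the 3 P29 hyperoxia arrays. The lung markers Sftpc (surfactant protein C) and Ager (an alveolar type 1 cell gene) had group means of 14.71 to 14.86 and 14.08 to 14.45 (log2).

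Before a cell copies its DNA, the origin recognition complex, Cdc6 and Cdt1 load the ring-shaped MCM helicase onto chromosomes, and geminin then blocks further loading. In S phase Cdc45 and the GINS complex switch the helicase on, and primase and polymerase alpha start the new strands. Polymerases delta and epsilon extend the strands with the sliding clamp PCNA, and ribonucleotide reductase and thymidine kinase supply the nucleotides. Cyclin E and the E2F transcription factors drive entry into S phase, and many of the genes named here are known E2F targets. In the mouse lung, cells divide through the formation of alveoli after birth, and division slows as the lung matures.

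At P29 nearly all of the measured replication genes rose in hyperoxia. At P14 fewer did, and for 29 of the 38 the difference from room air was higher at P29 than at P14. At P14, 22 of the 38 rose and 1 fell (limma, adjusted p threshold 0.05), where 32.3% of all genes rose and 22.8% fell. Their median log2 difference was 0.38, against 0.04 over all genes. At P29, 35 of 38 rose and 0 fell, where 34.2% of all genes rose and 25.5% fell, and the median was 1.23 against 0.04. The count of falls at an unadjusted p under 0.05 was 0. At the adjusted threshold it was also 0 in each limma fit that left out 1 P29 array. All 22 genes that rose at P14 were among the 35 that rose at P29. In P29 hyperoxia 24 of the 38 were at least 2-fold higher and past the threshold (4.98% of all genes), and at P14 there were 2 such genes, Ccne2 and Gmnn (3.94% of all genes). In bulk lung RNA, a change in the number of dividing cells and a change in RNA per cell cannot be told apart.

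**Figure D1:**
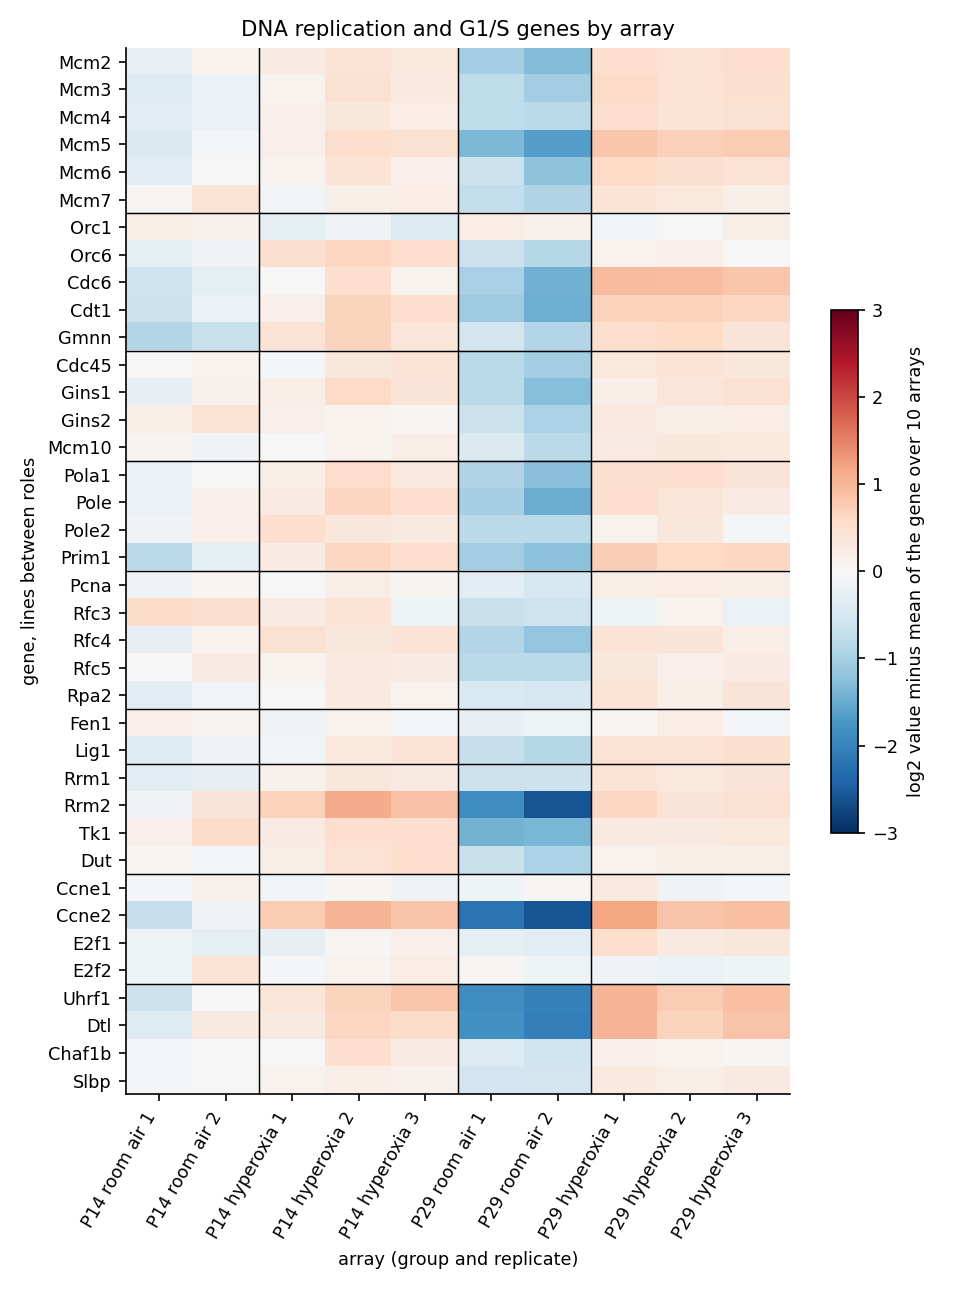
Log2 value of each of the 38 measured genes (rows, grouped by role) on each of the 10 arrays (columns), as the difference from that gene's mean over the 10 arrays. The 2 P29 room-air arrays are the lowest (blue) for most genes, and the 3 P29 hyperoxia arrays are above the mean for most.

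The P14 count moved more with the processing than the P29 count. Without P14 room-air replicate 1 the number of rises at P14 was 10, and without P14 hyperoxia replicate 2 it was 14. With the mean of all probe sets of a gene it was 12. At P29 it was 34 or 35 with any single array left out. Scaling each array to its 75th percentile gave 15 rises and 3 falls at P14 and 34 rises and 1 fall at P29. Under that scaling, rises made up 44.7% of all genes called at P14 and 40.8% at P29, against 58.6% and 57.2% on the values as deposited.

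Averaged over the 38 genes, the log2 level in room air was 8.11 and 8.35 at P14 but 7.29 and 7.51 at P29. In hyperoxia it ran from 8.47 to 8.72 at P14 and from 8.66 to 8.74 at P29. No array of a hyperoxia group overlapped the room-air arrays of its age. At P14 the gap between the groups was smaller than the distance between the 2 room-air arrays, and at P29 it was several times larger.

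Arrays of hyperoxia lungs differed from those of room-air lungs in measures that are not about these genes. For the actin control, the signal at the 3' end minus that at the 5' end, a gap that widens where RNA is degraded or incompletely copied, was 0.32 to 0.74 in the 4 room-air samples. In the 6 hyperoxia samples it was 1.33 to 2.21. The hybridisation controls, added to each sample in fixed amounts, read 11.07 to 11.30 in hyperoxia against 10.37 to 10.61 in room air, and the 18S rRNA probe sets 8.65 to 9.83 against 7.37 to 7.89. The spread of all values was wider in hyperoxia (SD 2.33 to 2.35, against 2.25 to 2.29), and the median difference of all genes moved with their level. It was -0.19 at P14 and -0.22 at P29 for genes with a mean under 6, and 0.20 and 0.21 for genes at 9 to 10. No measured replication gene had a mean under 6, and 13 of them lay at 7 to 8, where all genes had medians of 0.07 and 0.09 and these 13 had 0.28 and 1.04. For the 4 replication genes at 10 or more the P14 median was -0.0043, under the 0.14 of all genes at that level, and the P29 median was 0.72 against 0.15. With the actin difference as a covariate the P14 count of rises was 1 and the P29 count 27. The actin difference did not overlap between the room-air and hyperoxia arrays, so RNA quality and oxygen cannot be told apart in that fit. How far RNA quality contributed was not tested. Sex-linked transcripts showed males on all 5 P14 arrays and females on both P29 room-air arrays. Of the P29 hyperoxia arrays, replicate 1 showed a male, replicate 2 a female, while Xist and the Y-linked transcripts were both high in replicate 3. With replicate 2 as the only P29 hyperoxia array, 35 genes again rose with a median of 1.21, the lone array being assumed to vary like the others.

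The 6 subunits of the MCM helicase, which unwinds the DNA ahead of the polymerases, all rose at P29, and 4 of the 6 rose at P14. Beside the counts of this and each role below, 34.2% of all genes rose at P29 and 32.3% at P14. Mcm5 rose most at P29. Its log2 values were 9.02 and 9.39 in P14 room air, 9.61, 9.98 and 9.91 in P14 hyperoxia, 8.09 and 7.79 in P29 room air, and 10.29, 10.16 and 10.22 in P29 hyperoxia. The groups did not overlap at either age, and the lowest arrays of all were those of P29 room air. Mcm5 was 4.85-fold higher in hyperoxia at P29 (log2 difference 2.28 ± 0.14, SE; limma adjusted p = 5.32e-07) and 1.54-fold higher at P14 (adjusted p = 0.00322). Mcm7 had the smallest P29 difference of the subunits, with values of 9.78 and 9.61 in room air and 10.92, 10.84 and 10.71 in hyperoxia. At P14 its values were 10.56 and 10.92 in room air and 10.44, 10.69 and 10.73 in hyperoxia, and the groups overlapped. The difference of Mcm7 was 1.13 ± 0.13 at P29 (adjusted p = 2.84e-05) and -0.12 ± 0.13 at P14, where it did not pass (adjusted p = 0.444). Mcm2, Mcm3, Mcm4 and Mcm6 rose by 1.65, 1.39, 1.25 and 1.43 at P29. The first 3 of these also rose at P14, by 0.38, 0.57 and 0.49, and Mcm6 was 0.39 higher with an adjusted p of 0.0558.

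**Figure D2:**
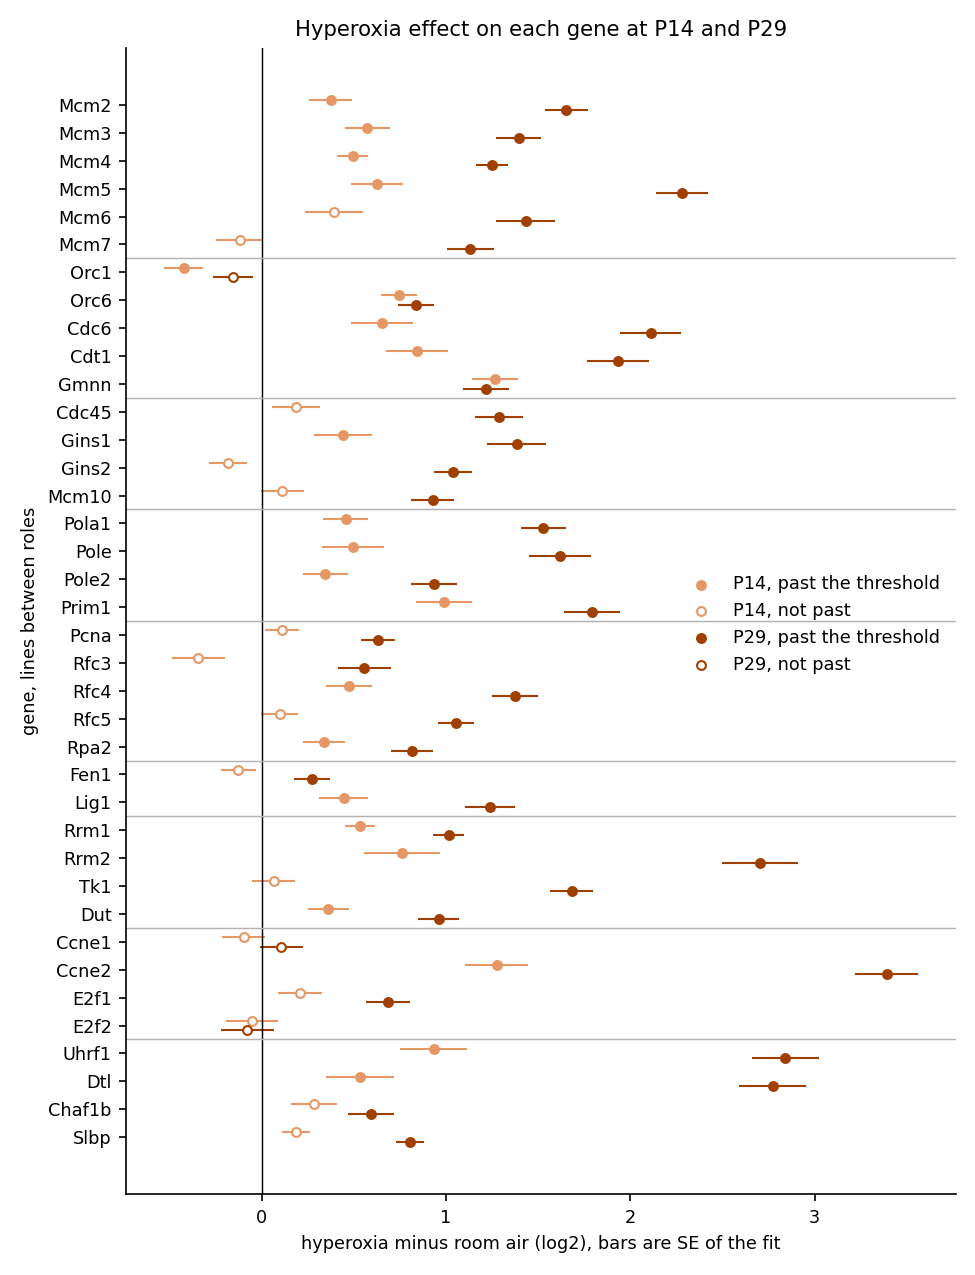
Log2 difference of hyperoxia minus room air for each measured gene at P14 (light) and P29 (dark), with the SE of the limma fit. Filled points passed the adjusted p threshold of 0.05. Ccne2 lies farthest right at 3.39 as measured, with P29 room-air values under the filter level, Gmnn and Orc6 have nearly the same value at both ages, and Orc1, Ccne1 and E2f2 are the 3 open points at P29.

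Promoter sequences were looked at because many of these genes are known E2F targets and rose together. RefSeq promoter windows (build GRCm38.p6; 250 bases before to 50 after an annotated transcript start) were given for 34 of the 40 genes. One of 4 E2F sites (TTTCCCGC, TTTCGCGC, TTTGCCGC or TTTGGCGC, on either strand, overlaps counted) was found in 14 of the 34 genes (41.2%) and in 704 of all 27025 genes with a window (2.60%). The CCAAT box (CCAAT) was in 21 of the 34 (61.8%; 41.1% of all genes). The CHR element of mitotic promoters (TTTGAA) was in 4 (11.8%; 20.2% of all genes). The set of all genes was not matched to the 34 in base content or expression, and the list holds known E2F targets. These shares are therefore a description and were not tested. The stretches below show 90 bases upstream of an annotated start for genes that differ in their response, with the E2F matches in capitals. Uhrf1 has 2 windows, and its stretch is from the 1 that held a match. Mcm5, Mcm6, Cdc6, Uhrf1 and Dtl rose strongly at P29. Orc1 did not on the probe set used, while a second, dimmer one rose by 0.64 (limma adjusted p = 0.00312). The stretches read 5′ to 3′ on the strand of the gene.
Mcm5 (chr8:75109317-75109406, plus strand): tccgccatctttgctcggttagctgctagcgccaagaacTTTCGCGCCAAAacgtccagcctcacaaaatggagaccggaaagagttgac
Mcm6 (chr1:128359736-128359825, minus strand): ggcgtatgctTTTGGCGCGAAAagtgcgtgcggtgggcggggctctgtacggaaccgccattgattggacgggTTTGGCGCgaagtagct
Cdc6 (chr11:98907972-98908061, plus strand): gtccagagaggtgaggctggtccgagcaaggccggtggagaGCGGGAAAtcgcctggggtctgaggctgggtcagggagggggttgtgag
Uhrf1 (chr17:56304087-56304176, plus strand): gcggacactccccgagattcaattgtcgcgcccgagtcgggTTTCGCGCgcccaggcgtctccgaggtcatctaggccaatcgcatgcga
Dtl (chr1:191575545-191575634, minus strand): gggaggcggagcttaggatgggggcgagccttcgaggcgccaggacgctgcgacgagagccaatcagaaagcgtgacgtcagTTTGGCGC
Orc1 (chr4:108579364-108579453, plus strand): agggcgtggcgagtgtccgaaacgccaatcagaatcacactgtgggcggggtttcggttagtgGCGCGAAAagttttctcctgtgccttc
In Mcm5 and Mcm6 a pair of matches on opposite strands overlap, and Mcm6 holds another closer to its start. A match is a description of letters, not of a bound site. All 14 genes with a match were measured. On the probe sets used, their P29 differences ran from -0.16 (Orc1) to 2.84 (Uhrf1) with a median of 1.41. Among the 18 measured genes whose window held no match they ran from 0.11 (Ccne1) to 2.70 (Rrm2) with a median of 0.94, so both sets held strong and weak responders.

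Of the 5 genes of origin recognition and helicase loading, 4 rose at both ages. Cdc6, the ATPase that recruits the helicase to origins, had the largest P29 difference. Its values were 6.10 and 6.47 in P14 room air, 6.73, 7.23 and 6.85 in P14 hyperoxia, 5.75 and 5.30 in P29 room air, and 7.69, 7.65 and 7.57 in P29 hyperoxia. In P29 hyperoxia every array lay above every array of the other 3 groups. Cdc6 was 4.32-fold higher at P29 (2.11 ± 0.17, adjusted p = 2.5e-06) and 1.57-fold at P14 (0.65 ± 0.17, adjusted p = 0.00671). Cdt1, its partner in loading, rose by 1.93 ± 0.17 at P29 and 0.84 ± 0.17 at P14.

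Gmnn (geminin, the inhibitor of Cdt1) rose at both ages. Its values were 7.96 and 8.19 in P14 room air, 9.29, 9.52 and 9.21 in P14 hyperoxia, 8.30 and 7.98 in P29 room air, and 9.39, 9.44 and 9.24 in P29 hyperoxia. The room-air groups overlapped each other, as did the hyperoxia groups, and every hyperoxia array was well above every room-air array. Its difference was 1.26 ± 0.12 at P14 (adjusted p = 2.07e-05) and 1.22 ± 0.12 at P29 (adjusted p = 1.5e-05), and these differed by -0.05 ± 0.18 (adjusted p = 0.883). Among the genes that rose at P14 it was the only one that passed in each alternative run. Orc6, the smallest origin recognition subunit, rose by 0.75 ± 0.10 at P14 and 0.84 ± 0.10 at P29, with a difference between the ages of 0.09 ± 0.14 (adjusted p = 0.705).

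Orc1, the ATPase subunit of origin recognition, was the 1 gene of the 38 that fell at P14. Its values were 6.93 and 6.85 in P14 room air, 6.47, 6.63 and 6.32 in P14 hyperoxia, 6.96 and 6.85 in P29 room air, and 6.63, 6.72 and 6.89 in P29 hyperoxia. The P14 hyperoxia arrays were below both P14 room-air arrays, and at P29 the groups overlapped. Orc1 fell by 0.42 ± 0.11 at P14 (adjusted p = 0.00626) and differed by -0.16 ± 0.11 at P29 (adjusted p = 0.225). A second, dimmer probe set of Orc1 gave 0.12 at P14 (adjusted p = 0.505) and 0.64 at P29 (adjusted p = 0.00312), so the direction of Orc1 depends on the probe set. Without P14 room-air replicate 1 its P14 call was lost, and 0 of the 38 genes fell.

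**Figure D3:**
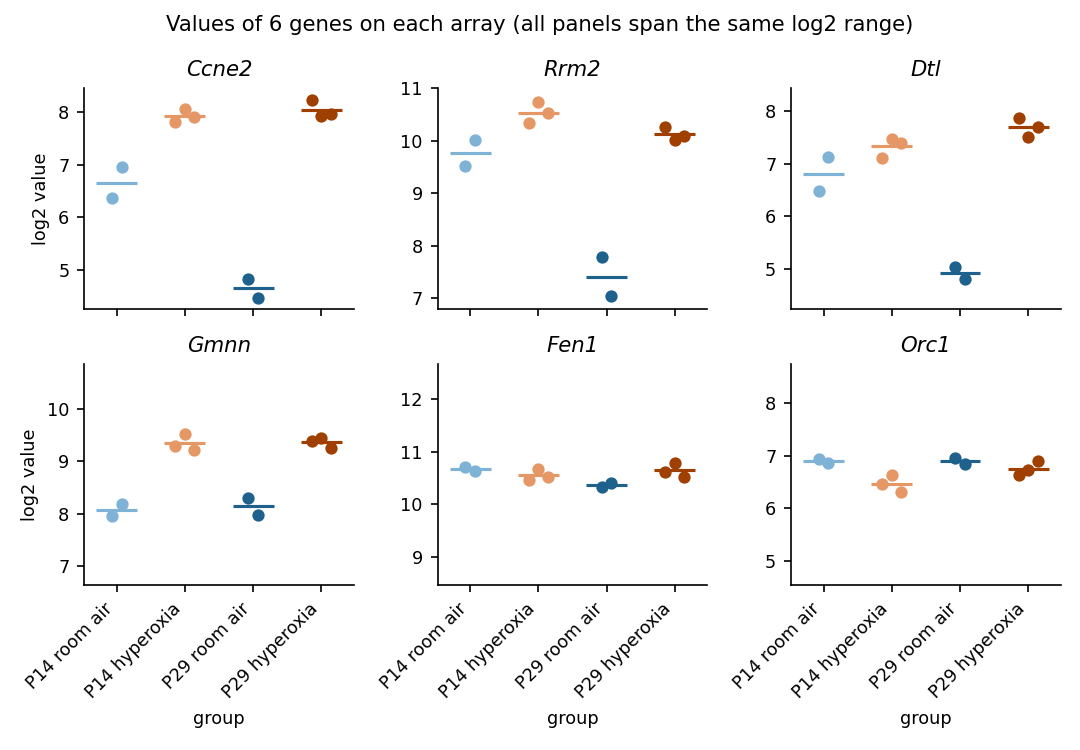
Log2 values of 6 genes on each array (points) with group means (lines). Ccne2, Rrm2 and Dtl are lowest in P29 room air, Gmnn is split by oxygen at both ages, Fen1 changes little, and Orc1 is lower in P14 hyperoxia.

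All 4 genes of helicase activation rose at P29 (34.2% of all genes did). At P14 1 of them, Gins1, rose, a count near the share of all genes (32.3%). Gins1, a GINS subunit, had values of 6.42 and 6.79 in P14 room air, 6.86, 7.22 and 7.05 in P14 hyperoxia, 5.85 and 5.39 in P29 room air, and 6.86, 7.03 and 7.11 in P29 hyperoxia. All hyperoxia arrays were above all room-air arrays, P14 room-air replicate 2 only just below the lowest of them. Gins1 was 2.61-fold higher at P29 (adjusted p = 3.26e-05) and 1.36-fold at P14 (adjusted p = 0.0352). Mcm10, which helps to open the helicase at origins, had the smallest P29 rise of the 4. Its values were 7.47 and 7.28 in P14 room air, 7.39, 7.49 and 7.58 in P14 hyperoxia, 6.96 and 6.57 in P29 room air, and 7.63, 7.73 and 7.71 in P29 hyperoxia. The P14 groups overlapped, and the P29 groups lay apart by 0.93 ± 0.12 (adjusted p = 5.78e-05). Cdc45, the helicase cofactor, rose by 1.29 and Gins2, another GINS subunit, by 1.04 at P29, with P14 differences of 0.19 and -0.18 that did not pass.

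The 4 polymerase and primase genes rose at both ages. Prim1, the catalytic primase subunit that makes the RNA primers, had values of 7.54 and 8.08 in P14 room air, 8.59, 8.95 and 8.85 in P14 hyperoxia, 7.29 and 7.11 in P29 room air, and 9.08, 8.94 and 8.97 in P29 hyperoxia. Every hyperoxia array was above every room-air array, whatever the age. Prim1 was 3.46-fold higher at P29 (adjusted p = 3.81e-06) and 1.99-fold at P14 (adjusted p = 0.000291). Pole2, a subunit of the leading-strand polymerase epsilon, had the smallest P29 rise of the 4. Its values were 7.86 and 8.11 in P14 room air, 8.46, 8.30 and 8.23 in P14 hyperoxia, 7.17 and 7.14 in P29 room air, and 8.06, 8.30 and 7.91 in P29 hyperoxia. The 2 P29 room-air arrays were low, and the other 8 arrays lay between 7.86 and 8.46. Pole2 rose by 0.94 ± 0.12 at P29 and 0.35 ± 0.12 at P14. Pola1 and Pole, the catalytic subunits of polymerases alpha and epsilon, rose by 1.53 and 1.62 at P29 and by 0.46 and 0.49 at P14.

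The 5 genes of the clamp, its loader and the single-strand binding complex all rose at P29 (34.2% of all genes did). At P14 2 of them, Rfc4 and Rpa2, rose, a count near the share of all genes (32.3%). Rfc4, a clamp loader subunit, had values of 7.15 and 7.51 in P14 room air, 7.86, 7.73 and 7.81 in P14 hyperoxia, 6.51 and 6.20 in P29 room air, and 7.82, 7.79 and 7.59 in P29 hyperoxia. The hyperoxia arrays of each age were above the room-air arrays of that age, by more at P29. Rfc4 was 2.59-fold higher at P29 (adjusted p = 6.61e-06) and 1.39-fold at P14 (adjusted p = 0.00806). Rfc3 encodes another loader subunit. Its values were 8.09 and 8.0 in P14 room air, 7.77, 7.92 and 7.39 in P14 hyperoxia, 6.85 and 6.90 in P29 room air, and 7.37, 7.63 and 7.31 in P29 hyperoxia. Both P14 room-air arrays were above all other arrays, and both P29 room-air arrays were below all others. Rfc3 rose by 0.56 ± 0.14 at P29 (adjusted p = 0.00602), while the P14 difference was -0.34 ± 0.14 and did not pass (adjusted p = 0.0602). Pcna, the sliding clamp, rose by 0.63 ± 0.09 at P29, Rfc5 by 1.05 and Rpa2, of the single-strand binding protein, by 0.82. Pcna and Rfc5 were 0.11 and 0.10 higher at P14 and did not pass, and Rpa2 rose by 0.34.

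Both genes that finish Okazaki fragments rose at P29, and Lig1 also at P14. Lig1, the ligase that seals the lagging strand, had values of 8.37 and 8.62 in P14 room air, 8.65, 9.03 and 9.13 in P14 hyperoxia, 8.02 and 7.86 in P29 room air, and 9.16, 9.17 and 9.22 in P29 hyperoxia. All hyperoxia arrays were above the room-air arrays of their age, at P14 narrowly. Lig1 rose by 1.24 ± 0.13 at P29 (adjusted p = 2.16e-05) and 0.45 ± 0.13 at P14 (adjusted p = 0.0157). Fen1, the flap endonuclease that trims the fragments, had values of 10.72 and 10.64 in P14 room air, 10.47, 10.67 and 10.52 in P14 hyperoxia, 10.33 and 10.42 in P29 room air, and 10.62, 10.80 and 10.53 in P29 hyperoxia. Its P29 groups lay next to each other without overlap, and its P14 groups overlapped. Fen1 rose by 0.27 ± 0.10 at P29 (adjusted p = 0.0304), the smallest rise of the 35, and was at -0.13 ± 0.10 at P14 (adjusted p = 0.288). Its P29 call was lost in 7 of the alternative settings, and a second Fen1 probe set rose by 0.73 at P29 (adjusted p = 0.00041).

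All 4 measured genes of nucleotide supply rose at P29, and 3 of them at P14. Rrm2, the regulated subunit of ribonucleotide reductase, had values of 9.52 and 10.02 in P14 room air, 10.33, 10.75 and 10.52 in P14 hyperoxia, 7.78 and 7.06 in P29 room air, and 10.26, 10.02 and 10.09 in P29 hyperoxia. The P29 room-air arrays were far below every other array. Rrm2 was 6.51-fold higher at P29 (2.70 ± 0.21, adjusted p = 1.97e-06) and 1.7-fold at P14 (adjusted p = 0.00909). Dut, the dUTPase that keeps uracil out of DNA, had the smallest P29 rise. Its values were 8.08 and 7.98 in P14 room air, 8.20, 8.45 and 8.55 in P14 hyperoxia, 7.36 and 7.08 in P29 room air, and 8.13, 8.19 and 8.20 in P29 hyperoxia. Every hyperoxia array was above the room-air arrays of its age, and the P29 difference was 0.96 ± 0.11 (adjusted p = 3.9e-05). Tk1, the thymidine kinase of dividing cells, rose by 1.68 ± 0.12 at P29 and was at 0.07 ± 0.12 at P14 (adjusted p = 0.654). Rrm1, the large reductase subunit, rose by 1.01 and 0.53.

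Of the 2 cyclin E genes, 1 rose. Ccne2, cyclin E2, had the largest difference of all 38 genes at both ages, at P29 also as the bound given below. Its values were 6.36 and 6.95 in P14 room air, 7.82, 8.06 and 7.91 in P14 hyperoxia, 4.83 and 4.47 in P29 room air, and 8.24, 7.92 and 7.96 in P29 hyperoxia. The hyperoxia arrays of both ages lay together, the P14 room-air arrays were lower, and the P29 room-air arrays lowest. Both P29 room-air values lay under the filter level of 5, so the P29 difference is given as a bound, with these arrays set to 5. Ccne2 was at least 8.23-fold higher at P29 (log2 3.04, adjusted p = 5.88e-07; as measured 3.39 ± 0.17) and 2.42-fold at P14 (1.28 ± 0.17, adjusted p = 0.000127). Ccne1, cyclin E1, had values of 7.47 and 7.63 in P14 room air, 7.42, 7.53 and 7.41 in P14 hyperoxia, 7.37 and 7.53 in P29 room air, and 7.79, 7.40 and 7.47 in P29 hyperoxia. All 4 groups overlapped, with differences of -0.10 ± 0.12 and 0.11 ± 0.12 (adjusted p = 0.495 and 0.449). The Ccne1 probe set used is of a kind that can match other transcripts (its identifier ends in x_at), as are those of Mcm5, Rrm2 and Fen1. A second Ccne1 probe set rose by 0.63 at P29 (adjusted p = 0.00493).

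Of the 2 activating E2F factors listed, E2f1 rose at P29 and E2f2 did not pass at either age. Of the 4 genes of cyclin E and these factors, 1 rose at P14 and 2 at P29 (32.3% and 34.2% of all genes). E2f1 rose by 0.69 ± 0.12 at P29 (adjusted p = 0.000532) and was 0.21 ± 0.12 higher at P14 (adjusted p = 0.159). E2f2 had values of 7.91 and 8.45 in P14 room air, 7.98, 8.15 and 8.26 in P14 hyperoxia, 8.07 and 7.88 in P29 room air, and 7.93, 7.85 and 7.92 in P29 hyperoxia. Its groups overlapped at both ages, and the differences were -0.05 ± 0.14 and -0.08 ± 0.14 (adjusted p = 0.775 and 0.654). A second E2f2 probe set rose at P14 by 0.47 (adjusted p = 0.00325) and was 0.19 higher at P29 (adjusted p = 0.133).

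All 4 measured genes of chromatin assembly and S phase control rose at P29, and Uhrf1 and Dtl also at P14. Uhrf1, which brings the maintenance DNA methyltransferase to new strands, had values of 7.22 and 7.89 in P14 room air, 8.23, 8.53 and 8.69 in P14 hyperoxia, 6.0 and 5.84 in P29 room air, and 8.88, 8.63 and 8.77 in P29 hyperoxia. Its P14 room-air arrays lay far apart, and all hyperoxia arrays were above both. Uhrf1 was 7.17-fold higher at P29 (2.84 ± 0.18, adjusted p = 6.27e-07) and 1.91-fold at P14 (adjusted p = 0.00135). Dtl, the ubiquitin ligase adaptor that removes Cdt1 in S phase, was 6.84-fold higher at P29 (2.77 ± 0.18, adjusted p = 7.6e-07). Of its P29 room-air values of 5.04 and 4.80, 1 lay under the filter level, and set to 5 it gave at least 6.38-fold. At P14 its values were 6.47 and 7.12 in room air and 7.11, 7.48 and 7.40 in hyperoxia, so the groups overlapped, with a difference of 0.53 ± 0.18 (adjusted p = 0.0278). The P14 rises of Dtl and Uhrf1 were seen only on the probe sets used. Other probe sets of Dtl were at 0.03, -0.49, 0.06 and -0.22 at P14, of which -0.49 passed. The second Uhrf1 probe set was at -0.23 and did not pass. Chaf1b, a chromatin assembly factor subunit, had values of 7.15 and 7.21 in P14 room air, 7.22, 7.71 and 7.47 in P14 hyperoxia, 6.81 and 6.62 in P29 room air, and 7.36, 7.30 and 7.25 in P29 hyperoxia. The P29 groups lay apart and the P14 groups touched without overlapping. Chaf1b rose by 0.59 ± 0.12 at P29 (adjusted p = 0.00193) and was 0.28 ± 0.12 higher at P14 (adjusted p = 0.0734). Slbp, which binds the stem-loop of histone mRNA, rose by 0.80 at P29 and was 0.18 higher at P14 (adjusted p = 0.0575).

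The difference between the ages was tested directly, as the P29 effect of hyperoxia minus the P14 effect. It was positive and past the threshold for 29 of the 38 genes and negative for 0, where 11.0% of all genes passed upward and 11.6% downward. At an unadjusted p under 0.05 the limma count of negative differences was 0. At the adjusted threshold, leaving out any 1 array also gave 0. The median difference was 0.86, against 0.00 over all genes. Dtl (2.24 ± 0.26, adjusted p = 0.00017), Ccne2 (2.12 ± 0.24), Rrm2 (1.94 ± 0.29) and Uhrf1 (1.91 ± 0.26) had the largest as measured. With P29 room-air values under 5 set to 5, Dtl was at 2.14 and Ccne2 at 1.76. The 9 genes that did not pass were Orc1, Orc6, Gmnn, Rpa2, Fen1, Ccne1, E2f1, E2f2 and Chaf1b. For Rpa2, Fen1 and E2f1 the difference was 0.48, 0.40 and 0.48, with adjusted p of 0.0563, 0.0587 and 0.0626. All P14 arrays carried male transcripts, both P29 room-air arrays female ones, and the P29 hyperoxia arrays were mixed. Age and sex therefore cannot be told apart in this contrast.

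The larger effect at P29 went with a lower level in room air at that age. In room air 32 of the 38 genes were lower at P29 than at P14 and 0 were higher (limma; 0 at an unadjusted p under 0.05), where 19.1% of all genes were lower and 22.2% higher. The median was -0.79, against 0.01 over all genes, and 11 genes were at least 2-fold lower (3.66% of all genes). Rrm2 was 5.11-fold lower (log2 difference -2.35 ± 0.23, adjusted p = 1.01e-05) and Tk1 was 3.37-fold lower. With their P29 room-air values under the filter level set to 5, Dtl was at least 3.42-fold and Ccne2 at least 3.15-fold lower. The 6 genes that did not pass were Orc1, Gmnn, Rpa2, Ccne1, E2f1 and E2f2. Gmnn was at 0.06 ± 0.14 and Orc1 at 0.01 ± 0.12. The 2 P29 room-air arrays enter this comparison, the P29 effect and the difference of effects, so the 3 results are not independent. Both of these arrays carried female and both P14 room-air arrays male transcripts, so age and sex cannot be told apart here.

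In hyperoxia few of the genes passed for age. Between P14 and P29 hyperoxia 4 genes were higher and 1 lower, where 15.4% of all genes were higher and 11.7% lower, and the median was 0.11 against 0.01. Cdc6 was higher by 0.70 ± 0.15 (adjusted p = 0.00544), E2f1 by 0.39 ± 0.11 (adjusted p = 0.0192), Mcm5 by 0.39 and Mcm4 by 0.23. Orc6 was lower by 0.46 ± 0.09 (adjusted p = 0.00294). The 4 higher calls numbered 1 to 5 when single arrays were left out, 1 of them without P14 hyperoxia replicate 1 and 2 without P14 hyperoxia replicate 3 or any of the 3 P29 hyperoxia arrays. None of the 5 calls held in every alternative run.

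P29 hyperoxia lungs were also set against P14 room-air lungs, which differ in age and oxygen, and also in sex-linked transcripts and control values. Of the 38 genes, 21 were higher and 1 lower, where 34.7% of all genes were higher and 24.5% lower, with a median of 0.40 against 0.04. Ccne2 (1.39 ± 0.17), Cdc6 (1.35 ± 0.17), Gmnn (1.28 ± 0.12), Uhrf1 (1.21 ± 0.18) and Prim1 (1.19 ± 0.15) were the highest. The lower gene was Rfc3, at -0.61 ± 0.14 (adjusted p = 0.00369). Mcm7, Gins2, Tk1 and Fen1 had differences of 0.08, -0.05, -0.07 and -0.03 that did not pass. With the actin difference as a covariate 3 genes were higher, and RNA quality and oxygen cannot be told apart in that fit either.

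Genes of mitosis, which act after replication, were measured beside them. Of 15 measured mitosis genes (16 listed), 9 rose at P14 and all 15 at P29, with medians of 0.44 and 2.11, and 0 fell at either age. Over all genes, 32.3% rose and 22.8% fell at P14, and 34.2% rose and 25.5% fell at P29. All 15 mitosis genes were lower at P29 than at P14 in room air (19.1% of all genes), with a median of -2.27. In hyperoxia 14 of the 15 were lower at P29 (11.7% of all genes), with a median of -0.56, whereas 1 of the 38 replication genes was. In P29 hyperoxia against P14 room air, 1 mitosis gene was higher and 5 were lower, with a median of -0.19, beside 21 and 1 of the replication genes with 0.40. Over all genes, 34.7% were higher and 24.5% lower in that comparison. Averaged, the mitosis genes stood at 8.19 and 8.44 in P14 room air, 6.01 and 6.33 in P29 room air, 8.55 to 8.86 in P14 hyperoxia and 8.10 to 8.17 in P29 hyperoxia. Whether the mitosis and replication lists differ was not tested, and these counts are a description.

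**Figure D4:**
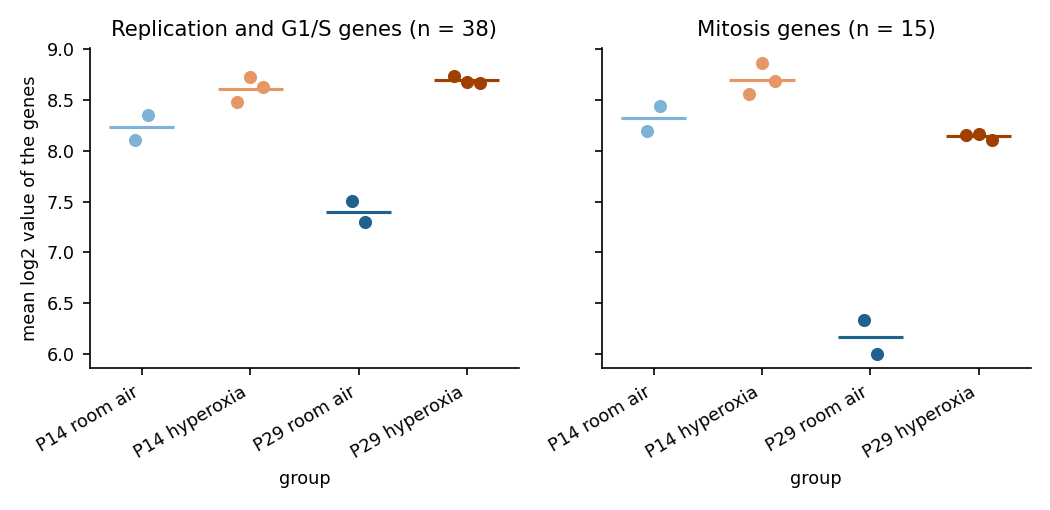
Mean log2 value of the 38 replication and G1/S genes (left) and of 15 mitosis genes (right) on each array, with group means as lines. The P29 hyperoxia arrays lie above the P14 room-air arrays on the left (8.66 to 8.74 against 8.11 and 8.35) and below them on the right (8.10 to 8.17 against 8.19 and 8.44).

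A wider list of 54 other replication and G1/S genes, 53 of them measured, was read in the same fit. At P14 28 of the 53 rose and 6 fell (median 0.38), where 32.3% of all genes rose and 22.8% fell. At P29 38 rose and 4 fell (median 0.73), where 34.2% rose and 25.5% fell. The strongest at P29 by p were Clspn, the checkpoint mediator of forks (2.38 ± 0.09, adjusted p = 3.62e-08), Dbf4, the activator of the origin-firing kinase Cdc7 (2.13 ± 0.10), Ccna2, cyclin A2 (2.87 ± 0.16) and Hells, a chromatin remodeller (2.79 ± 0.16). At P14 they were Dbf4 (1.13 ± 0.10, adjusted p = 8.81e-06), Topbp1 (0.81 ± 0.08), Clspn (0.89 ± 0.09) and Orc5 (0.63 ± 0.08). The 4 that fell at P29 were E2f5 (-1.07 ± 0.12) and E2f4 (-0.77 ± 0.15), known as repressive E2F factors, Pold4, a small polymerase delta subunit (-0.74 ± 0.08), and Rrm2b, the reductase subunit of resting cells (-0.30 ± 0.10). Pold4, E2f4 and E2f5 fell at P14 too, by 0.89, 0.68 and 0.86, along with Pola2, Rnaseh2a and Recql4. E2f7, a late repressor of E2F targets, rose by 2.95 ± 0.22 at P29 and 1.28 ± 0.22 at P14. The difference of effects passed upward for 25 of the 53, where 11.0% of all genes did, and downward for Tfdp2, an E2F partner (-0.37 ± 0.11, adjusted p = 0.0295).

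Other probe sets of the same genes show how far the result rests on the brightest one. The 38 genes have 46 others, of which 35 on 25 genes passed the filter, in a fit of all 27615 single-gene probe sets. At P29, 26 of the 35 rose and 1 fell, where 29.9% of all probe sets rose and 26.5% fell, with a median of 0.83. At P14, 9 rose and 6 fell, where 27.9% rose and 24.6% fell, with a median of 0.00 against 0.39 for the probe sets used beside them. At P14 17 had the same sign as the one used and 18 the opposite. The difference of effects passed upward for 23 and downward for 0 (8.0% and 8.05% of all probe sets) and had the same sign in 34 of 35, with medians of 0.86 and 0.90. For 5 genes, Dtl, Mcm3, Rpa2, Rrm1 and Rrm2, one other probe set fell at P14 while the one used rose. These were at -0.49, -0.59, -0.62, -0.51 and -0.62. A further Rrm2 probe set rose by 0.78 at P14 and 2.87 at P29, and 2 further Mcm3 probe sets rose by 0.41 and 0.40 at P14.

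Mcm5 and Rrm2, 2 of the strong risers, have used probe sets of the kind that can match other transcripts. Their other probe sets gave 1.65 at P29 for Mcm5, against 2.28, and 2.87 and 0.92 for Rrm2, against 2.70. Some further probe sets that disagreed with the one used are given by gene. At P14 a second one rose by 1.38 for Mcm6, and those of Mcm7 were at 0.39, -0.11 and -0.41, the first and last past the threshold. Second probe sets of Cdt1, Uhrf1 and Mcm5, whose used probe sets rose at P14, were at 0.00, -0.23 and 0.11 and did not pass, nor did Mcm2 at 0.32. Others of Dtl at 0.03, 0.06 and -0.22, of Dut at -0.16 and of Mcm3 at -0.08 did not pass at P14 either. At P29 the second probe set of Chaf1b fell by 0.28 (adjusted p = 0.027). Those of Cdc45, Dut, Rpa2 and Rrm1 were at -0.04, -0.01, -0.14 and -0.11, 1 of E2f1 was at -0.08, and those of Mcm3 at -0.08 and 0.18, and none of these passed.

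**Figure D5:**
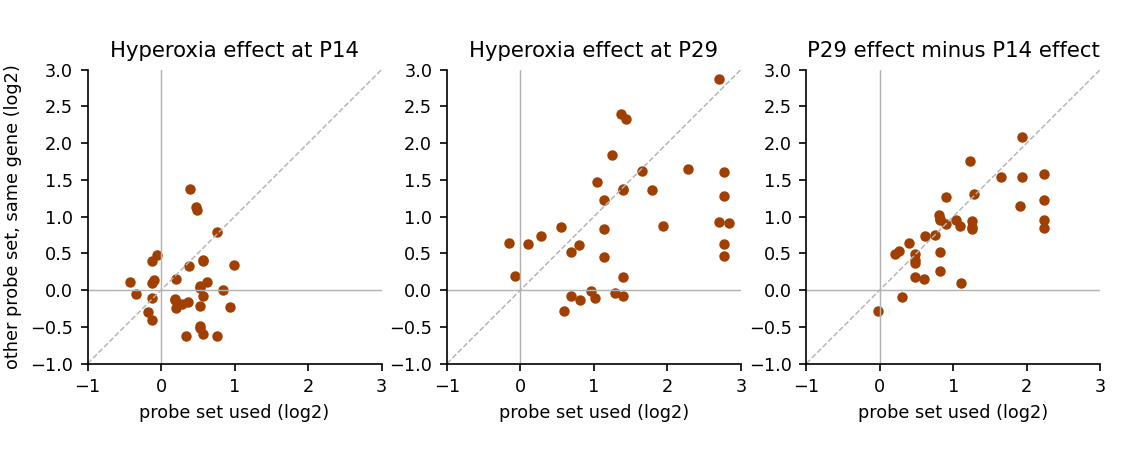
Log2 difference on 35 other probe sets (vertical) against the probe set used for the same gene (horizontal), for the hyperoxia effect at P14 (left), at P29 (middle) and their difference (right). Points spread around 0 at P14, lie mostly above 0 at P29, and follow the dashed line of equality most closely for the difference of effects.

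Markers of other cell types that could be present in the samples were read beside these results. Of 7 measured thymocyte markers (9 listed), 0 rose and 5 fell at each age, and their averaged level was 5.60 to 5.69 in P14 hyperoxia against 6.02 and 6.09, and 5.59 to 5.71 in P29 hyperoxia against 6.22 and 6.35. Rag1 lay below the filter. Of 5 measured red cell precursor markers (8 listed), 0 rose, 3 fell at P14 and 2 at P29, at 6.93 to 7.01 against 7.47 and 7.49, and 6.18 to 6.36 against 6.43 and 6.99. Hemgn and Rhag lay below the filter. Of 7 B cell precursor markers, 1 rose and 2 fell at P14 and 2 rose and 5 fell at P29, Vpreb1 among the rises at P29 (0.50). Over all genes 32.3% rose and 22.8% fell at P14, and 34.2% rose and 25.5% fell at P29. The thymocyte levels lay close to the filter. The part of these cells in the replication gene result was not tested.

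Markers of lung cells are given beside the shares of all genes, of which 32.3% rose and 22.8% fell at P14 and 34.2% rose and 25.5% fell at P29. Several of the counts lie near or below those shares, the epithelial ones at P14 among them. Of 10 endothelial markers 1 rose and 5 fell at P14 and 0 rose and 7 fell at P29, with averaged levels of 10.89 to 11.00 against 11.27 and 11.30, and 10.50 to 10.68 against 11.53 and 11.65. Of 9 macrophage markers 3 rose and 4 fell at P14 and 0 rose and 5 fell at P29 (8.54 to 8.90 against 9.12 and 9.30, and 9.60 to 9.89 against 10.32 and 10.40). Of 12 fibroblast and mural markers 3 rose and 4 fell at P14 and 6 rose and 2 fell at P29 (10.75 to 10.87 against 10.62 and 10.78, and 10.55 to 10.70 against 10.40 and 10.47). Of 11 epithelial markers 2 rose and 2 fell at P14 and 2 rose and 5 fell at P29 (12.09 to 12.20 against 12.28 and 12.30, and 12.46 to 12.52 against 12.85 and 12.86). Of 7 heart muscle markers 4 rose and 0 fell at P14 and 1 rose and 3 fell at P29 (9.23 to 9.49 against 8.59 and 8.91, and 9.09 to 9.99 against 9.68 and 9.76). Their part was not tested either.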

How the data were processed

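Lung RNA was measured on 10 Affymetrix arrays, and the authors deposited log2 values per probe set, made with Partek 6.4 and GCRMA, per the submitters' processing notes. Neither the GCRMA version nor the scaling between arrays is given in the sources used here. GCRMA models background from probe sequence, which compresses dim values and can move low and high genes differently. Of 45101 probe sets, 34958 name 1 gene in the platform annotation, 932 several and 9211 none.

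The brightest probe set of each gene was used, and a gene was kept if 2 or more arrays reached a log2 of 5 (14989 of 18194). limma 3.58.1 in R 4.3.3 fitted 4 group means over the 10 arrays (6 residual degrees of freedom). Tests were two-sided, with Benjamini-Hochberg adjustment over the 14989 genes and a threshold of 0.05. Differences are in log2 with the SE of the fit, and "2-fold or more" means past the threshold and a log2 difference of at least 1. The number of arrays limits the precision. The scripts were tested on simulated data. The genes, their roles and the other lists were chosen with earlier results of these data known. Values on every array are given, in each role, for the gene of largest and of smallest P29 difference, and for genes that fell or did not pass at P29. Gmnn, Orc6, Dtl and the 6 printed promoters were chosen after values were seen. The alternatives were other rules for the probe set and filter, fit and scaling choices, covariates for RNA quality and sex-linked transcripts, and fits without single arrays. A search of protein motifs was not run.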

Additional observations from a re-analysis of the deposited data

Results flagged for a closer look

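The effect of hyperoxia differed between the ages for 29 genes, by the limma contrast of the P29 effect minus the P14 effect (adjusted p threshold 0.05). Each of the 29 differences was positive. Sex-linked transcripts also differed between the ages, so age and sex cannot be told apart in this contrast. In the helicase the log2 differences were 1.28 for Mcm2, 0.82 for Mcm3, 0.75 for Mcm4, 1.65 for Mcm5, 1.04 for Mcm6 and 1.25 for Mcm7. For loading and activation they were 1.46 for Cdc6, 1.09 for Cdt1, 1.10 for Cdc45, 0.94 for Gins1, 1.22 for Gins2 and 0.81 for Mcm10. For polymerases and primase they were 1.07 for Pola1, 1.12 for Pole, 0.59 for Pole2 and 0.80 for Prim1. For the clamp, its loader and ligation they were 0.52 for Pcna, 0.90 for Rfc3, 0.90 for Rfc4, 0.96 for Rfc5 and 0.79 for Lig1. For nucleotide supply they were 0.48 for Rrm1, 1.94 for Rrm2, 1.62 for Tk1 and 0.60 for Dut. The remaining genes were Ccne2 at 2.12 (1.76 with its P29 room-air values, which lie under the filter level, set to 5), Uhrf1 at 1.91, Dtl at 2.24 (2.14 set likewise) and Slbp at 0.62.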

How the results depend on the processing

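The P29 rises were the steadier result. Of the genes called, those called in every alternative were 26 of 35 at P29, 21 of 29 for the difference of effects, 19 of 32 for age in room air, 1 of 23 at P14, 3 of 22 for P29 hyperoxia against P14 room air and 0 of 5 for age in hyperoxia. With the actin covariate alone, 21 of the P14 calls were lost and 1 changed direction. That covariate divides the arrays by oxygen without overlap. With the mean of all probe sets of a gene, 12 genes rose and 0 fell at P14, 2 fell with age in hyperoxia, and the medians were 0.13 (P14), 0.93 (P29), 0.69 (difference of effects), -0.54 (age in room air) and 0.20 (P29 hyperoxia against P14 room air). With the probe set of largest interquartile range, 0 fell at P14 and 1 at P29, 2 rose and 2 fell with age in hyperoxia, and 2 were lower in P29 hyperoxia than in P14 room air. With the actin difference as a covariate, 1 rose and 0 fell at P14, and 3 were higher and 0 lower in P29 hyperoxia than in P14 room air. Falls at P14 numbered 2 with the intensity trend and robust fit, 2 after quantile normalization and 3 after 75th percentile scaling, which gave 1 fall at P29. Both scalings gave 2 lower genes in P29 hyperoxia against P14 room air. With age in hyperoxia, 3 fell with array weights, 2 fell when only the arrays compared were fitted, and 2 rose with the Y-linked covariate. With the female P29 hyperoxia array alone, 0 rose and 0 fell with age in hyperoxia, and 0 were lower in P29 hyperoxia than in P14 room air. The cause was not tested.

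The 75th percentile scaling took the all-gene median from 0.04 to -0.06 (P14) and from 0.04 to -0.10 (P29), and the share of all calls that were rises from 58.6% to 44.7% and from 57.2% to 40.8%. For P29 hyperoxia against P14 room air that share went from 58.6% to 44.6%. Relative to all genes, the medians of the replication genes under it were 0.35 and 1.19, with 15 rises at P14 and 34 at P29.

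Leaving out 1 array gave 10 to 24 rises and 0 to 2 falls at P14 (median 0.25 to 0.55), and 34 to 35 rises at P29 (median 1.11 to 1.30). It gave 24 to 30 genes for the difference of effects (median 0.72 to 1.0) and 25 to 33 lower with age in room air (median -0.93 to -0.61). In hyperoxia 1 to 5 rose and 1 to 2 fell with age. In P29 hyperoxia against P14 room air 18 to 23 were higher and 1 to 2 lower (median 0.26 to 0.58).

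Single genes changed direction. With the probe set of largest interquartile range, P14 differences became 0.39 for Mcm7, 0.12 for Orc1, -0.16 for Dut and 0.47 for E2f2, and P29 differences 0.64 for Orc1, -0.010 for Dut and -0.28 for Chaf1b. Chaf1b became 0.035 for age in room air and -0.24 for P29 hyperoxia against P14 room air. With the mean of probe sets, P14 differences became -0.14 for Rpa2 and -0.067 for Dtl. With the actin covariate, Lig1 became -0.090 at P14 and Rfc3 0.013 in P29 hyperoxia against P14 room air.

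The replicate numbers of the titles showed no clear pairing of the samples. Over 13 pairs of arrays with the same number, correlations of their deviations from the group mean ran from -0.10 to 0.20. Over 24 pairs with different numbers they ran from -0.16 to 0.15. In a group of 2 arrays the deviations mirror each other, so these values cannot exclude a pairing. With the replicate block, 17 genes rose at P14, 35 at P29, 29 had a positive difference of effects, 32 were lower with age in room air, 2 rose with age in hyperoxia and 20 were higher in P29 hyperoxia than in P14 room air.

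Setting values under the filter level to 5, an alternative chosen after seeing the data, gave 23 rises and 1 fall at P14, 35 rises at P29 and 29 positive differences of effects.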
